A study of Mus musculus with 3 samples.

Results

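The Csf1 locus of the mouse carried 10 ERα binding sites in mammary glands after 2 h of estradiol, of which 6 were called in both ChIP-seq replicates and 4 in replicate 1 only. A site was taken as a peak whose midpoint lay within 100 kb of any annotated transcription start site (TSS) of Csf1. By this rule 10 of the 9607 peaks of replicate 1 and 6 of the 6819 peaks of replicate 2 belonged to the locus, and each of the 6 overlapped a peak of replicate 1. The strongest site lay 8344 bp beyond the 3′ end of the gene and held an estrogen response element (ERE) without a mismatch. A group of 3 of the shared sites lay between -79578 and -66140 bp upstream, 1 weak site stood at -6624 bp, and no peak of either list overlapped the gene itself.

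ERα is the nuclear receptor for estradiol, and the data were obtained by immunoprecipitation of ERα with the antibody sc-542, followed by sequencing (ChIP-seq). The mammary glands (#4) came from wild type BALB/c females (BALB/cJ in the study's methods). Their ovaries were removed at an age of 6 weeks, and after a rest of 10 days they were given 100 ng of 17β-estradiol for 2 h. Glands of 6 mice were pooled for each of the 2 replicates, a single input library served both, and whole glands without the lymph node were used, so that all cell types with ERα contribute to a peak. No vehicle-treated ERα library is among the samples used here, so whether a peak depends on the hormone cannot be told from these lists. The values are the deposited peak positions and scores. A score is the negative log10 p-value of the peak caller multiplied by 10, and the lowest scores of the lists were 80.02 and 80.05, next to the score of 80 that the cutoff of 1e-08 sets. Scores depend on enrichment and on depth, and the lists hold no reads, so scores were ranked within a list. With 2 pools no spread between animals can be estimated, and no test of a difference was made.

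CSF1, also called M-CSF, is a secreted or membrane-bound cytokine on which most tissue macrophages depend for survival and proliferation. It acts through CSF1R, a receptor tyrosine kinase of macrophages and their precursors, and it shares this receptor with the cytokine that Il34 encodes. In the mammary gland, macrophages gather around the growing terminal end buds, and mice without CSF1 have fewer of them and a poorly branched ductal tree. ERα binds as a dimer to an ERE, an inverted repeat of the half-site GGTCA with a spacer of 3 bases, and many bound regions hold an imperfect repeat or a single half-site. The receptor is also recruited through other factors bound to DNA, such as AP1 and SP1.

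The best match to the ERE consensus GGTCANNNTGACC is printed for each of the 6 sites called in both replicates, so that they can be compared base by base. They are given 5′ to 3′ on the plus strand of NCBIM37 (mm9), with the 13 bases of the match in capitals and 14 bases of flank on each side. Csf1 is on the minus strand of chromosome 3, and sites are numbered in the direction of its transcription. The reference is that of the C57BL/6J strain, and the sequence of the BALB/cJ mice was not examined.
Site 1, chr3:107643024-107643064: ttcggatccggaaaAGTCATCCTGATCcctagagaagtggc
Site 3, chr3:107631460-107631500: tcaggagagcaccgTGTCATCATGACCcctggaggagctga
Site 4, chr3:107629479-107629519: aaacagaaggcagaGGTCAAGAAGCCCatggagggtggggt
Site 5, chr3:107569833-107569873: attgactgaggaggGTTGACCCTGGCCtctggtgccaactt
Site 6, chr3:107535588-107535628: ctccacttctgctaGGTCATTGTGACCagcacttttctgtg
Site 8, chr3:107506951-107506991: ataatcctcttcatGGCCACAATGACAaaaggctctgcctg

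Differences from the consensus are written with the base of the consensus, its position counted from 1 at the 5′ end of these 13 bases, and the base of the site. At site 6 there was none. Site 3 differed by G1T, site 1 by G1A and C12T, and site 4 by T9A and A11C. At site 8 the differences were T3C and C13A, and at site 5 they were G2T, C4G and A11G. Both half-sites were therefore intact at site 6 alone, and one half-site was intact at sites 3 and 4. The match of site 5 lay -158 bp and that of site 8 -203 bp from the midpoint of the region, whereas those of sites 3, 4 and 6 lay at -35, -28 and -14 bp.

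**Figure D1:**
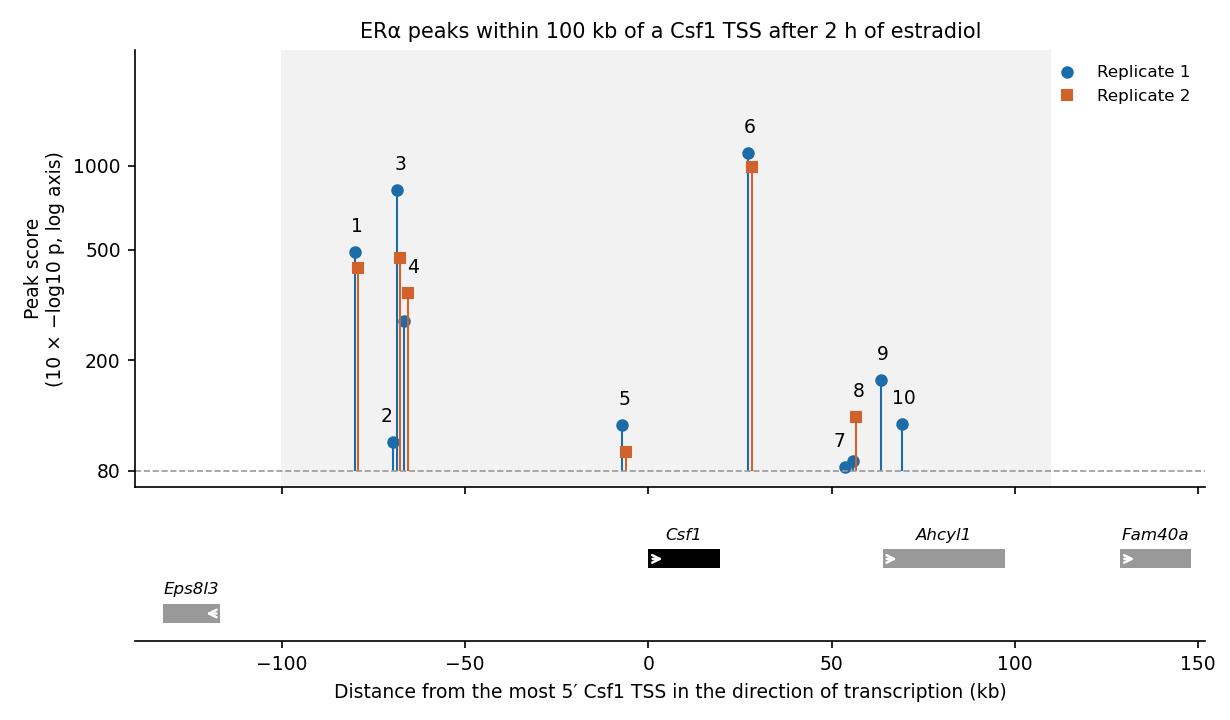
Peak scores (negative log10 p-value multiplied by 10, log axis) of the 10 sites against the distance in kb from the most 5′ TSS of Csf1, along the direction of transcription. Circles are replicate 1 and squares replicate 2, drawn slightly apart so that both can be seen, the shaded area is the window of the rule, the dashed line is the score of 80, and grey boxes are 3 neighbouring genes with arrows for their direction. Site 6 stood highest in both replicates, and sites 2, 7, 9 and 10 have a circle only.

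Csf1 (ENSMUSG00000014599) spans chr3:107543966-107563387 and has 7 annotated transcripts that start at 6 positions, from 107563387, the most 5′, to 107553659. The window of the rule thus ran from 107453659 to 107663387, a length of 209729 bp. The gene lies alone in an interval between Eps8l3, which encodes a relative of the growth factor receptor substrate EPS8, and Ahcyl1, which encodes IRBIT, a regulator of inositol trisphosphate receptors and ion transporters. Eps8l3 begins on the opposite strand upstream of Csf1, and Ahcyl1 follows downstream on the same strand. Of the other protein-coding genes of the annotation, only Ahcyl1 had a TSS within 100 kb of one of Csf1. All 6 sites called in both replicates were intergenic, where 53.3% of the 6243 shared regions on the chromosomes lay outside protein-coding genes.

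Site 6 (chr3:107535343-107535901) was the strongest of the locus in both lists. Its scores were 1113.58 in replicate 1, rank 442 of the list, and 991.96 in replicate 2, rank 316. In both lists 95.4% of the peaks scored lower. By the lower of its 2 scores it was rank 309 among the shared regions, with 95.1% below it. Its midpoint lay 18037 bp downstream of the most 3′ TSS and 27765 bp downstream of the most 5′ TSS. No other gene had a nearer TSS than Csf1. Shared regions with a perfect ERE numbered 412, or 6.60% of the total, and 85.9% of these had a lower score than site 6. The 300 bp around its midpoint are printed with each half-site in capitals, since half-sites were more frequent here than at nearly all other regions.
Site 6, chr3:107535472-107535771: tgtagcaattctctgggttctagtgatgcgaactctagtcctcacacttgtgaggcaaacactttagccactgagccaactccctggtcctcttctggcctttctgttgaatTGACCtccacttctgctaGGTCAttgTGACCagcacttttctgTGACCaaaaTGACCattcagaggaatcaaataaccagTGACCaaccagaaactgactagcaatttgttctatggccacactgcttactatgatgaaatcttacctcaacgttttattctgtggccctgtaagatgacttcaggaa

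In the 400 bp around the midpoint, site 6 held 6 half-sites, a number reached by 1.33% of shared regions, and the median over all of them was 2. The perfect ERE GGTCATTGTGACC (chr3:107535602-107535614) was centred -14 bp from the midpoint. A further repeat with 2 mismatches, GACCAAAATGACC (chr3:107535628-107535640), was centred 12 bp on its other side. The other half-sites lay between -36 and 44 bp from the midpoint, so that all 6 were found close to the centre of the region. None of the 8 other motifs searched was found in the window, and its GC content was 42.00%, where the median of shared regions was 48.25%.

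The 3 upstream sites 1, 3 and 4 made a group whose midpoints spanned 13438 bp. That 3 shared regions fell within such a span was true of 12.1% of shared regions, and this span was read from the sites themselves. The TSS nearest to each was that of Eps8l3, at -37183, -48633 and -50621 bp, and the distances to the nearest Csf1 TSS were -79578, -68128 and -66140 bp. Site 3 (chr3:107631178-107631872) was the strongest of them in both lists, with scores of 817.48 in replicate 1, rank 752, and 467.32 in replicate 2, rank 1063. It was lower than site 6 in each replicate. Site 1 (chr3:107642640-107643301) scored 492.0 in replicate 1, rank 1489, and 429.81 in replicate 2, rank 1178. Site 4 (chr3:107629213-107629841) scored 276.54, rank 2778, and 347.76, rank 1502. The order of the 3 sites was the same in both replicates, and by the lower score 81.5% of shared regions were below site 1, 83.2% below site 3 and 69.6% below site 4.

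The elements of the upstream group were less complete than that of site 6. Site 3 had 1 mismatch in TGTCATCATGACC (chr3:107631474-107631486), an SP1 motif (GGGCGG) and 2 half-sites, one of them in the ERE. Site 1 had 2 mismatches in AGTCATCCTGATC (chr3:107643038-107643050), 1 half-site, and none of the other motifs. Site 4 had 2 mismatches in GGTCAAGAAGCCC (chr3:107629493-107629505), 2 half-sites, and a RUNX motif (TGTGGT). Among shared regions with the same number of mismatches, 83.8% scored lower than site 1, 73.7% lower than site 3 and 70.9% lower than site 4. The 300 bp around the midpoint of site 3 are given for comparison with site 6, again with half-sites in capitals.
Site 3, chr3:107631365-107631664: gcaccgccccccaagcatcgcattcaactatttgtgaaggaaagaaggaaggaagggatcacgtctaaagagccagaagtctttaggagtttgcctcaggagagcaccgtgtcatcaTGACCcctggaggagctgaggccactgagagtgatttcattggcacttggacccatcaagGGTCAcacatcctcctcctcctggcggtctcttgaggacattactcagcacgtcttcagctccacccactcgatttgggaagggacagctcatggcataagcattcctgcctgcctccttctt

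Site 5 (chr3:107569742-107570281), at -6624 bp, was the site closest to a Csf1 start and, with site 6, one of the 2 whose nearest TSS was that of Csf1. It was weak in both replicates, with scores of 117.31 in replicate 1, rank 6618, and 93.55 in replicate 2, rank 5863. Its lower score exceeded that of 13.2% of shared regions. The ERE closest to the consensus had 3 mismatches. The window held 2 half-sites, a forkhead motif as FOXA1 binds it (searched as TGTTTAC and TATTTAC), and a STAT5 motif (TTCNNNGAA, here TTCCTAGAA), the binding site of the factor that prolactin activates. Its 300 bp are printed because no other site lay as close to a Csf1 TSS, although it fell outside the range of -1000 to 400 bp around it. The forkhead motif and 1 of the half-sites lie outside this stretch, at -189 and -160 bp from the midpoint.
Site 5, chr3:107569861-107570160: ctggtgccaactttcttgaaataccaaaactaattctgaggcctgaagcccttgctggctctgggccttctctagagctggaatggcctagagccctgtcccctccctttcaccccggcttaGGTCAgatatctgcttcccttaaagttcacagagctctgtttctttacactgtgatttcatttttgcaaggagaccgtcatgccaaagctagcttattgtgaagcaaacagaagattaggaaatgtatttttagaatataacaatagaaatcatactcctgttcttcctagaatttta

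Site 8 (chr3:107506918-107507430) was the weakest of the shared sites in replicate 1, with a score of 86.71, rank 8904, just above the cutoff. It was stronger in replicate 2, with 124.92, rank 4454. By the lower score it exceeded 6.85% of shared regions. It lay 46485 bp downstream of the nearest Csf1 TSS and -7696 bp from that of Ahcyl1, its nearest gene. Its window held 1 half-site, 4 bp from the midpoint, and no other motif, and the ERE with 2 mismatches (chr3:107506965-107506977) lay outside the window at the edge of the region.

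The lower scores of the 6 sites had a median of 353, beside 168 over all shared regions and an upper quartile of 330. This was not a uniform shift, since sites 1, 3 and 6 were above the upper quartile, site 4 lay between the median and that quartile, and sites 5 and 8 were below the median. Over all shared regions the median lower score was 340 with a perfect ERE, 224 with 1 mismatch, 168 with 2, 136 with 3 and 129 with 4. At the locus the sites with 0 and 1 mismatch were also those with the highest and second highest lower scores. Sites 1 and 4, with 2 mismatches each, came next with lower scores of 429.81 and 276.54, and site 5, with 3, had 93.55. Site 8, whose window held no match with fewer than 4 mismatches, had the lowest. The order by lower score thus never ran against the number of mismatches in the window. Over the whole region it did at site 8, where a match had 2. With 6 sites the relation was not tested.

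**Figure D2:**
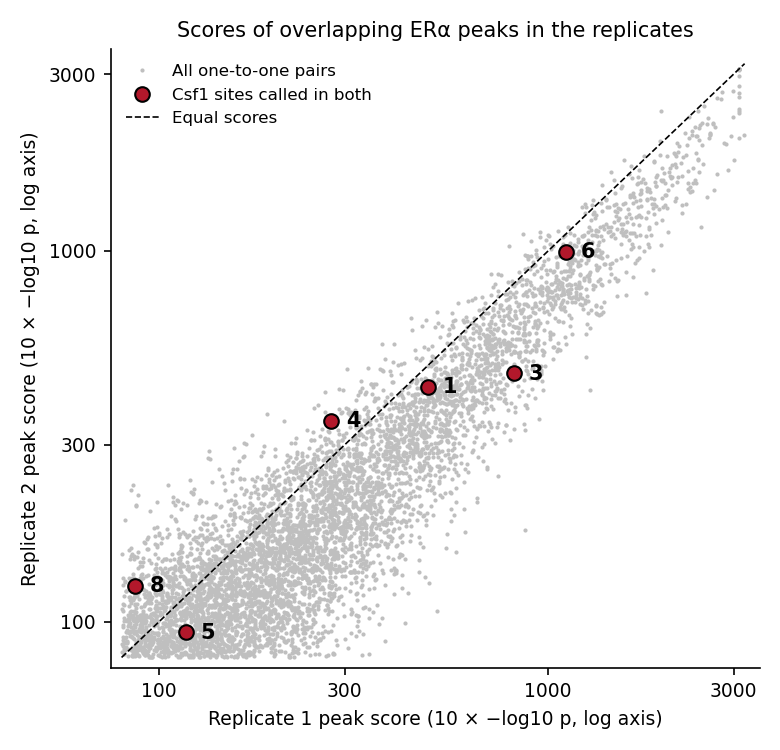
Score in replicate 2 against score in replicate 1 for the 6097 pairs of peaks that overlap one to one (grey points) and the 6 Csf1 sites (red, numbered), both axes on a log scale in units of the negative log10 p-value multiplied by 10. Sites 4 and 8 lie above the dashed line of equal scores, where 18.7% of the pairs lie, and the other sites lie below it.

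The replicates differed in which sites they called and in the scores of those they shared. All 6 peaks of replicate 2 had a partner, where 90.6% of its list overlapped a peak of replicate 1, and 6 of the 10 peaks of replicate 1 had one, where the share was 64.9%. The score of replicate 1 divided by that of replicate 2 was 1.14 at site 1, 1.75 at site 3, 0.795 at site 4, 1.25 at site 5, 1.12 at site 6 and 0.694 at site 8. The median over the sites was 1.13, and that of all one-to-one pairs was 1.31 with quartiles of 1.07 and 1.63. Scores were higher in replicate 2 at 2 of the 6 sites, 4 and 8, as at 18.7% of pairs. The ratio of site 8 exceeded that of 2.21% of pairs, that of site 4 exceeded 5.36%, and site 3 was above 81.0%. Sites 1, 5 and 6 lay inside the quartiles of all pairs.

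Of the sites called in replicate 1 only, sites 2 and 7 lay beside a shared site and sites 9 and 10 lay on Ahcyl1. Site 2 (chr3:107632442-107632973) scored 101.52, rank 7648, and its midpoint was 1192 bp from that of site 3. The nearest peak of replicate 2 was 1204 bp away. Its window held the only AP1 motif of the locus (TGACTCA, the binding site of Fos and Jun dimers), a RUNX motif and a STAT5 motif, with no half-site and a best ERE of 3 mismatches. It was rich in GC, at 61.00%, with 15 CpG dinucleotides. Site 7 (chr3:107509131-107509538) scored 82.56, rank 9373, and lay 2160 bp from site 8. Its window held 2 half-sites and a RUNX motif, and no ERE with fewer than 4 mismatches.

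Site 9 (chr3:107498715-107500121) covered the start of Ahcyl1, with its midpoint in untranslated exon sequence, 5 bp from the TSS. It scored 169.65 in replicate 1, rank 4632, which was more than 91.6% of the replicate 1 peaks without a partner, and at 1407 bp it was wider than 99.8% of them. The nearest peak of replicate 2 was 7873 bp away. The GC content of its window was 73.00%, with 54 CpG dinucleotides, 4 SP1 motifs, and no half-site. Outside the window, the region held 6 half-sites and 2 ERE matches with 2 mismatches, the nearer of them (chr3:107499091-107499103) at -321 bp from the midpoint. A forkhead motif (TGTTTAC) and a GATA factor motif (AGATAA) also lay there. A position between -1000 and 400 bp of a TSS was held by 1 of the 4 sites of replicate 1 only and by 0 of the 6 shared sites, where the shares were 11.7% of the replicate 1 peaks without a partner and 6.50% of shared regions. Site 10 (chr3:107493272-107494095), in an intron of Ahcyl1 5198 bp from its TSS, scored 117.66, rank 6603, and held 1 half-site and a best ERE of 3 mismatches in its window. The median score of replicate 1 peaks without a partner was 105, with sites 2 and 7 below it and sites 9 and 10 above it.

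**Figure D3:**
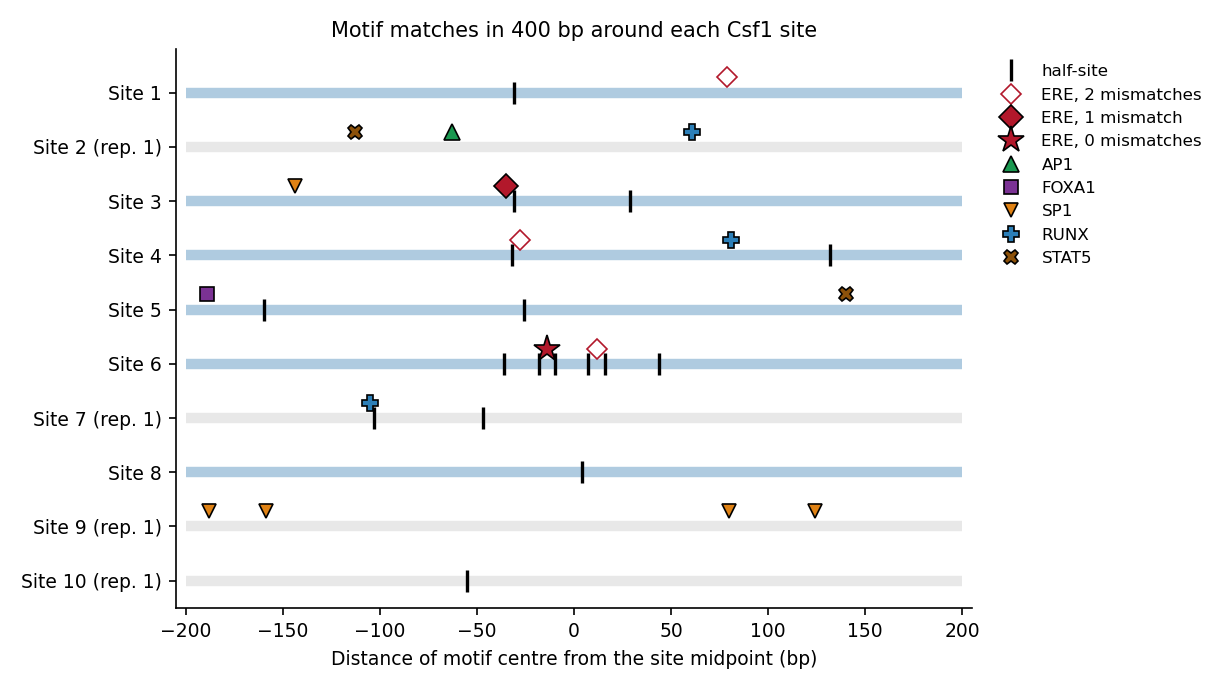
Motif matches in the 400 bp around the midpoint of each site, with the distance of the motif's centre from the midpoint in bp on the horizontal axis. Blue bars are sites called in both replicates, grey bars are sites of replicate 1 only, and ticks and symbols mark the motifs of the legend. Half-sites gathered at the centre of site 6, and the only star, the perfect ERE, is there.

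Motifs were searched on both strands without mismatch, apart from the ERE. An ERE with at most 1 mismatch was found at 2 of the 6 shared sites, where 31.1% of shared regions held one, and a perfect ERE at 1 of 6. With at most 2 mismatches it was 4 of 6, against 67.4% over all shared regions. None of the 4 sites of replicate 1 only held an ERE with at most 1 mismatch, as 15.7% of such peaks did. Half-sites overlap the ERE wherever one of its arms is intact, and their median number was 2 at the sites and over all shared regions.

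Other motifs were few at the shared sites. RUNX was found at 1 of 6 (28.6% of all shared regions), SP1 at 1 (9.47%), the forkhead motif at 1 (14.0%) and STAT5 at 1 (14.4%). None held AP1 (16.7%), the motif AGATAA of GATA factors (20.6%), the extended half-site of SF1 (CAAGGTCA, 9.34%) or the PAX2 motif searched as GTCACG (9.16%). Each of these counts was 0 or 1 of 6, and none was tested against the background. A match shows only that these letters are in the window of the reference.

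The shared sites stood far from other regions called in both replicates. From site 1 to site 8 their midpoints spanned 135.791 kb, and the next region called in both replicates was 943.387 kb from site 1 on the Eps8l3 side and 1810.02 kb from site 8 on the Ahcyl1 side. They were thus the only shared regions in a stretch of 2889.2 kb. The median distance between neighbouring shared regions was 94.926 kb, and 10.4% of the gaps were as long as the shorter of those beside the locus. The outermost sites inside the window were site 1 at -79578 bp and site 10 at 59976 bp. Just outside it, the nearest peak was one of replicate 1 only, 118.803 kb upstream of the nearest Csf1 TSS (chr3:107681952-107682429), with a score of 146.37. This peak lay much closer to site 1 than the next shared region did. On the other side, the first peak of replicate 1 was 489.487 kb from the nearest Csf1 TSS (chr3:107063915-107064429). That of replicate 2 was 488.742 kb from it (chr3:107064597-107065237). These peaks lay side by side without overlap, so they did not count as a shared region. The gap beyond site 8 and the stretch of 2889.2 kb therefore depend on the overlap rule.

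Assignment to genes depended on the rule used. Within 100 kb, all 6 shared sites belonged to Csf1. Among the neighbouring protein-coding genes examined, 3 of the sites also belonged to Eps8l3 and Gstm5, 3 to Ahcyl1, and 1 to Fam40a and Gm10961. By the nearest TSS, Csf1 had 2 sites, 5 and 6, Eps8l3 had 3 and Ahcyl1 had 1. For counts over all genes, a region was assigned to the nearest TSS of any gene if that lay within 100 kb. By this rule 11.8% of 22350 protein-coding genes were nearest to at least 1 shared region. Of these 2643 genes, 795 had at least 2. Within 100 kb, 38.1% of genes had at least 1 shared region, with a median of 1 among those that had any. Csf1 had more than 98.6% of genes, 143 genes including itself had 6, and 164 had more, so that 1.37% had at least as many. The peaks hold no information on which of these genes a site acts on.

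**Figure D4:**
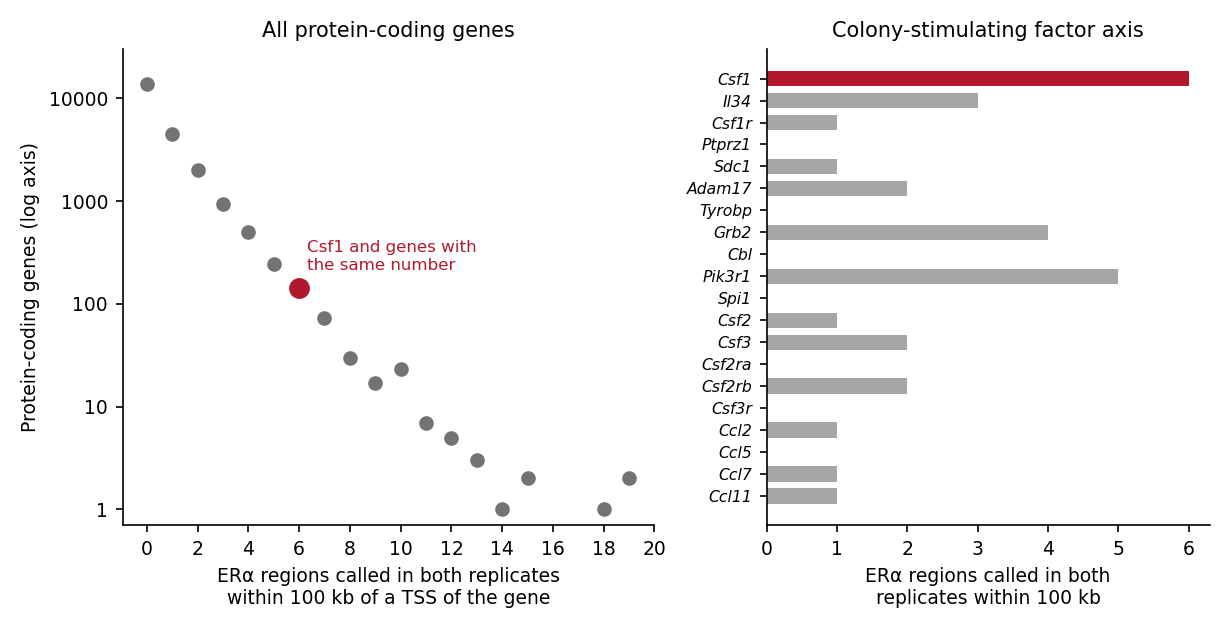
Left, the number of protein-coding genes (log axis) with each number of ERα regions called in both replicates within 100 kb of a TSS, with the 143 genes that have 6, Csf1 included, in red. Right, that number for 20 genes of the colony-stimulating factor axis, with Csf1 in red, which has more than the other 19.

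Genes of the colony-stimulating factor axis were examined in the same way, and 13 of the 20 had at least 1 shared region within 100 kb, where the share over all protein-coding genes was 38.1%. The 13 include Csf1 itself, for which the locus was chosen, and 3 chemokine genes that share 1 region. The list was also drawn up with earlier results of these data known, so no excess over all genes can be read from it. Il34, the gene of the second CSF1R ligand, had 3, none of them nearest to it, and the highest lower score among these was 1587, above that of site 6. Csf1r had 1. Of the other receptors described for that ligand, Sdc1 had 1 with a lower score of 82.8 and Ptprz1 had 0. Adam17, the protease that sheds CSF1R, had 2. Among genes of signalling from the receptor, Pik3r1, a regulatory subunit of phosphatidylinositol 3-kinase, had 5, of which 4 were nearest to it, Grb2 had 4, and Tyrobp and Cbl had 0. Spi1, the gene of the myeloid factor PU.1, had 0.

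The other colony-stimulating factors had fewer regions than Csf1. Csf3 had 2, of which 1 was nearest to it, with a highest lower score of 1076, and Csf2 had 1 with 142. Of their receptors Csf2rb had 2, and Csf2ra and Csf3r had 0. The chemokine genes Ccl2, Ccl7 and Ccl11, which attract monocytes and eosinophils, lay within 100 kb of the same single region with a lower score of 128, and its nearest TSS was that of Ccl11. Ccl5 had 0. Csf1 and Pik3r1 were the only genes of the list with more than 1 region nearest to them.

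Of the 142 other genes with 6 shared regions, those most like Csf1 in the sum of their log10 lower scores were 2310045N01Rik, Armc6 and Homer3 on chromosome 8. They share the same 6 regions and count as 1 locus. The sum was 14.67 there and 14.65 at Csf1, and the highest lower scores were 1144 and 992. Armc6 was nearest to 2 of the regions, as Csf1 was to 2 of its own.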

How the data were processed

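ERα ChIP-seq peak lists of 2 replicates were analysed, and the input library entered through the authors' peak calling. The authors aligned reads to mm9 with BWA (named in the submitters' processing notes) and ran MACS on each replicate with the input as control and a p-value cutoff of 1e-08. The MACS version is not given in the sources used here. The deposited score is the negative log10 p-value multiplied by 10, and start positions were converted to 1-based.

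Peaks of the replicates that had 1 bp or more in common were called shared, and the stretch covered by both is the shared region. TSSs were those of GENCODE version 1 for mouse (Ensembl 65, NCBIM37). Motifs were searched in 400 bp around midpoints, and the best ERE in the whole region. Genes named are Csf1, the gene nearest to each site, coding genes with a TSS within 100 kb of one of Csf1, a list of the colony-stimulating factor axis, and the 3 distant genes with the same number of regions and the closest sum of log10 lower scores. Gstm5, Fam40a and Gm10961 were named after their values or positions were seen. The sites and lists were chosen with earlier results of these data known. Of the list, Spi1 was matched through an older symbol. Overlap, assignment and motif search were tested on simulated data. Alternatives were p-values of 1e-10 and 1e-20, other windows, TSS sets, overlaps and motif settings, and each replicate alone. Depth is not in the lists, and the study's read totals were not used. RNA-seq and ChIP-qPCR were not analysed here. Sequences were read with pysam 0.24.0, tables with pandas 2.3.3, and figures drawn with matplotlib 3.10.9 under Python 3.11.15.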

Additional observations from a re-analysis of the deposited data

How the results depend on the processing

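With 1 replicate alone no site can be shared, so all peaks of that list were counted. All 10 sites were in replicate 1, which alone gave 99.4899% of genes with fewer sites and a highest score of 1113.58. Replicate 2 alone gave 6 sites, 98.4474% and 991.96. At p-values of 1e-10 and 1e-20 the number of shared sites was 4, and with midpoints within 100 bp it was 5. At 1e-10, 1 site was nearest to Csf1 and 96.6801% of genes had fewer shared sites. At 1e-20 there were 4 sites of replicate 1, 1 site nearest to Csf1 and 99.1902%. Within 50 kb, replicate 1 had 4 sites and replicate 2 had 3, 3 were shared, 1 of them had an ERE, and the percent was 96.4609; within 200 kb it was 94.783%. The percent was 98.9128 when 1 TSS per gene, the most 5′, was used, 98.8054 with reciprocal 50% overlap and 98.3982 with midpoints within 100 bp. An ERE was found at 1 site without mismatch and at 4 with at most 2. The fewer sites at stricter p-values and shorter distances follow from the settings, and the cause of the other changes was not tested. No paired analysis was possible because the lists hold no reads and no groups were compared. The lists hold no reads and the read totals of the libraries were not used here, so scores were not adjusted for depth between replicates.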
